A study of Arabidopsis thaliana with 18 samples.

Results

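NLR genes (nucleotide-binding, leucine-rich repeat receptors, the plant's intracellular immune receptors) were taken here as the rows of the deposited expression table whose description or Swiss-Prot text holds the words disease resistance protein, at a level of 1 TPM or more in 3 or more libraries. TPM is a transcript's level per length, scaled so that every library has the same total. The words matched 192 of the 33082 rows of the table. Of these, 144 reached the level and are the members described below, and 48 did not, 8 of them being at 0 TPM in every library. In all, 21727 genes of the table reached the level and were tested.

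Seedlings of Arabidopsis thaliana, accession Col-0, were used at an age of 9 days after vertical growth. The mutant, labelled bon123t and written bon123 here, is a triple mutant of BON1, BON2 and BON3. The meaning of its letter t is not given in the labels. Its reference is wild type (WT), and each genotype received 100 µM abscisic acid (ABA, the stress hormone), 300 mM mannitol (an osmoticum) or mock treatment on 1/2 MS medium. The 6 groups were thus bon123 ABA, bon123 mannitol, bon123 mock, WT ABA, WT mannitol and WT mock, with 3 libraries each and 18 in all. The sample labels give 12 h of treatment and the series text gives 24 h. Nothing says that the 3 libraries of a group were separate cultures. The p-values therefore rest on the spread between these libraries alone, which may be technical.

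An NLR protein carries an NB-ARC domain, a molecular switch that binds ADP at rest and ATP when active, followed by leucine-rich repeats that sense pathogen effectors or the state of guarded host proteins. Sensor NLRs begin with a TIR domain or a coiled coil. TIR receptors signal through EDS1 with PAD4 or SAG101 to helper NLRs, whose N terminus resembles RPW8 and which form calcium channels at the membrane. BON1 encodes a copine, a calcium-dependent phospholipid-binding protein, and its loss in Col-0 is known to activate the TIR receptor SNC1, with autoimmunity and dwarf growth.

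By the domains that the table lists, 83 members had TIR and NB-ARC, 43 had NB-ARC without TIR, 5 were helpers of the RPW8 type, 3 had TIR only and 10 had no NLR domain. The 10 were kept because the rule takes them. Among them, AT1G72852, AT1G72855, AT3G05015 and AT4G26095 are annotated by RefSeq as non-coding RNAs, AT3G26470 has an RPW8 domain alone, and AT4G16880 and AT5G23400 have repeats without NB-ARC. The rule also leaves out 17 tested genes with an NB-ARC domain, among them ZAR1, LOV1, CSA1, DSC1 and CHS3. CHS1, AT1G17600, AT1G17615 and RLM1 matched the words but stayed under 1 TPM in all 18 libraries. At the edge of the level, 5 members reached 1 TPM in exactly 3 libraries, such as AT3G25510, with a highest value of 4.24 TPM and all 3 libraries in bon123 mock. AT4G08450 and AT5G41550 reached it in 2 libraries, with highest values of 1.49 and 1.66 TPM, and are no members. Those 5 members reached the level in 1 group only, and 58 members reached it in all 18 libraries.

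The nucleotide-binding switch is written in the genes as a P-loop, a stretch of 8 residues that grips the phosphates of the nucleotide. Of 138 members with a RefSeq protein, 117 held the pattern Gly, any 4 residues, Gly, Lys, Ser or Thr. It was found in 73 of 82 TIR-NB-ARC members, 39 of 42 NB-ARC members without TIR, 4 of 5 helpers, 0 of 3 TIR-only members and 1 of 6 members without an NLR domain. The codons of the P-loop are shown for 10 members whose values are given below, to let the helpers be set against the sensors. Each runs 5′ to 3′ on the coding strand, and the capitals mark the last 3 codons, which encode Gly, Lys and Ser or Thr. The sequences were read by locus from the RefSeq genome TAIR10.1.
ADR1 (helper, chr1:12169668-12169691, plus strand): ggaatgagcggttcaGGGAAAACC
ADR1-L1 (helper, chr4:16053364-16053387, minus strand): ggaatgggcggtgttGGTAAAACC
ADR1-L2 (helper, chr5:1361366-1361389, plus strand): gggatgagtggttcaGGGAAAACC
AT5G66910 (helper, chr5:26720525-26720548, minus strand): ggtcctcctggttgtGGGAAGACC
SNC1 (TIR, chr4:9504722-9504745, minus strand): ggacaatcagggattGGTAAGAGT
RLM3 (TIR, chr4:9561263-9561286, plus strand): gggccttctgaaactGGTAAGACT
VICTR (TIR, AT5G46520, chr5:18868559-18868582, plus strand): ggttcctcggggattGGTAAGACT
AT4G19520 (TIR, chr4:10645839-10645862, minus strand): ggtatggcaggcataGGAAAGACG
AT1G66090 (TIR, chr1:24603962-24603985, plus strand): ggtcctgcaggcattGGTAAGAGT
RPS2 (no TIR, chr4:13225139-13225162, plus strand): ggacctggtggggttGGGAAGACA
Over the 45 pairs of these, between 9 and 22 of the 24 bases were identical, with a median of 14. Some members are near copies. Of 50-base stretches of coding sequence, RDL5 (AT1G58807) shared 100% with AT1G59124, RF9 (AT1G59218) shared 100% with AT1G58848, and VICTR shared 72.1% with its neighbour VICTL (AT5G46510). In all, 27 of 138 members shared at least 10% with another member, and their single values are uncertain because reads can be split between copies. Another annotated gene overlaps 33 members by at least 100 bases, as AT4G26095 does with RPS2 and AT4G08785 with ADR1-L1 on the opposite strand. AT5G45472 overlaps AT5G45490 on the same strand. Whether the libraries kept strand is not stated, and such values are uncertain too.

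Before the family is compared, 4 facts about the libraries bear on every result. BON1 was at 0.25 to 1.66 TPM in the 9 bon123 libraries, against 10.13 to 18.27 TPM in the 9 WT libraries, and BON2 was at 2.85 to 16.2 TPM, against 21.3 to 36.3 TPM, while BON3 stayed under 1 TPM in all and was the higher in bon123. The summed level of 4 shoot markers (RBCS1A, CAB1, RCA and GLK2) was 971 to 1317 TPM in bon123 mock and 229 to 264 TPM in bon123 ABA, against 34189 to 37315 TPM in WT mock and 25581 to 30862 TPM in WT ABA. In mannitol it was 1098 to 1199 TPM in bon123 and 18835 to 23832 TPM in WT. The summed level of 4 root markers, nearly all of it PYK10, was 15117 to 16476 TPM in bon123 mock and 11269 to 15302 TPM in bon123 mannitol, against 1892 to 2626 TPM in WT mock and 1626 to 2531 TPM in WT mannitol, and in ABA the genotypes overlapped. The root markers did not all go this way in mock. EXPA7 had mean levels of 5.94 TPM in bon123 mock and 11.07 TPM in WT mock, and COBL9 1.75 and 3.71 TPM. CASP1 had 55.97 and 43.23 TPM. No shoot marker was at 0. Seedlings of both genotypes carry the same tissue label, so each comparison of bon123 with WT below moves with the shoot markers. The part of the shoot and root markers in it was not tested. In such bulk samples fewer cells of a type and less RNA per cell cannot be told apart. Replicate 3 of bon123 ABA stood apart, with 21893 genes above 0 TPM, against 23112 and 23138 in replicates 1 and 2. The median-of-ratios factor, a measure of how the typical gene's value in a library compares with the other libraries, was 0.646 to 0.904 in the bon123 ABA and bon123 mannitol libraries and 1.01 to 1.27 in the other 12.

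The summed level of the 144 members was 1628, 1640 and 1808 TPM in bon123 mock, against 1150, 1185 and 1289 TPM in WT mock. It was 698, 713 and 633 TPM in bon123 mannitol, against 1350, 1358 and 1408 TPM in WT mannitol. In ABA it was 878, 759 and 490 TPM in bon123, the last in replicate 3, against 1022, 875 and 947 TPM in WT. The bon123 sums lay above all WT sums in mock and below all WT sums in mannitol, and in ABA the genotypes overlapped. By group mean, 74 members were highest in bon123 mock and 36 in WT mannitol, while 48 were lowest in bon123 mannitol, 39 in WT ABA and 35 in bon123 ABA. The same counts were not made over all tested genes. AT1G59780, AT1G65850, AT2G17050 and AT3G25510 are members only through their level in bon123 mock.

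**Figure D1:**
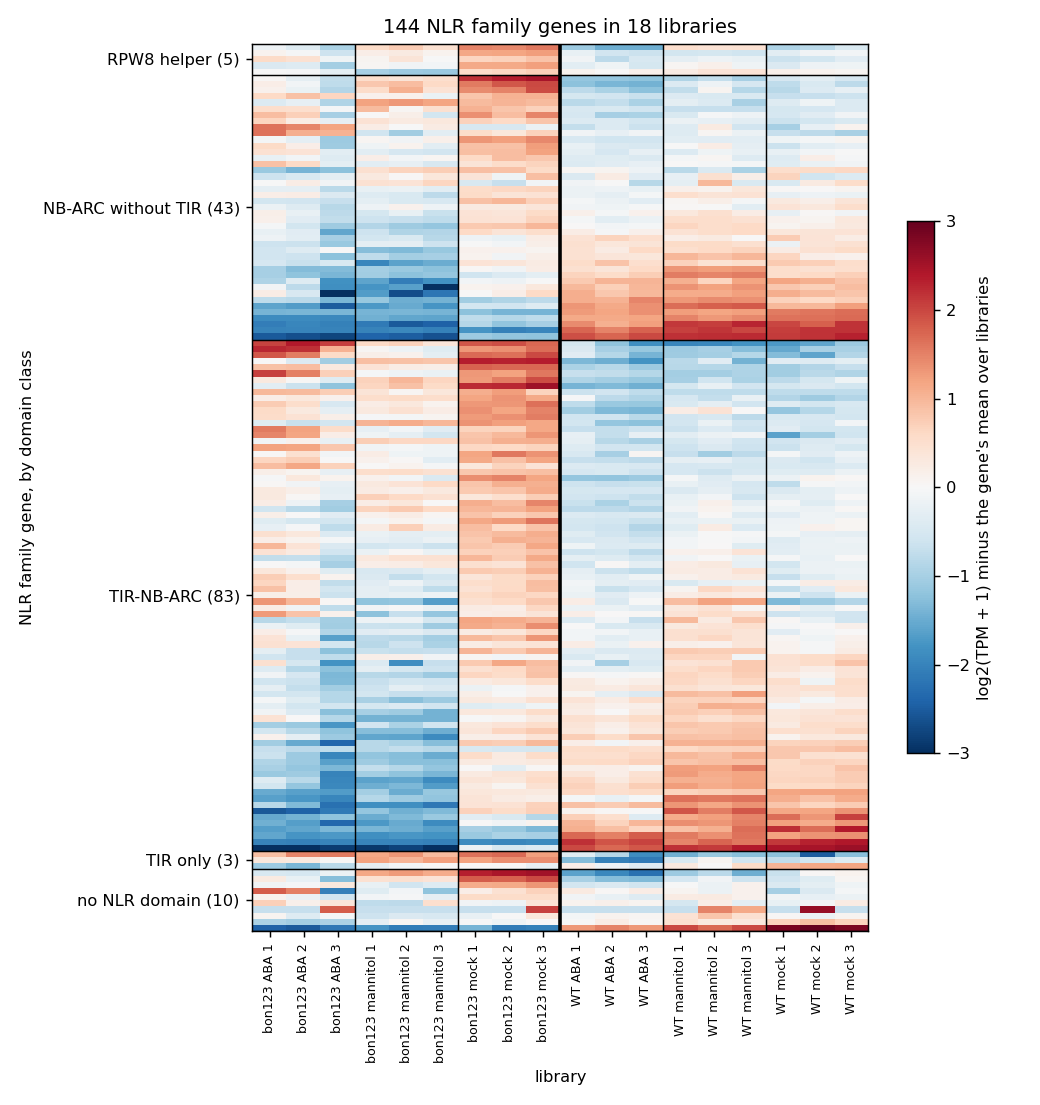
Each row is 1 of the 144 members, grouped by domain class with the number of genes in brackets, and each column is 1 library. Color gives log2(TPM + 1) minus the gene's mean over all 18 libraries, red above and blue below, cut at 3 in either direction. The bon123 mock columns are red in most rows, as 74 members had their highest group mean there, and the bon123 mannitol columns hold the most lowest group means, 48. These counts were not made over all tested genes.

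Fold changes were tested with limma on log2(TPM + 1), and a gene was called, and is said to have risen or fallen, at a Benjamini-Hochberg adjusted p under 0.05 over the 21727 genes. Each log2 fold change stands with its standard error (3 libraries a group) and understates the change of genes with low levels. In mock-treated seedlings, most members were higher in bon123 than in WT. Of 144, 78 were called higher (54.2%, against 40.1% of all tested genes) and 30 lower (20.8%, against 33.7% of all tested genes). The median log2 fold change of members was 0.69, against 0.13 over all tested genes. TIR-NB-ARC genes had 48 higher and 15 lower of 83, with a median of 0.90, and NB-ARC genes without TIR had 19 higher and 12 lower of 43, with a median of 0.21. The members are long transcripts, with a median of 3538.5 bases, against 1646 bases over all tested genes. Among 12062 other genes between the members' 10th and 90th percentile of length (1489.5 to 4894 bases), 40.7% were higher and 34.1% lower, with a median of 0.13. With a narrower window of 2762.75 to 4117.5 bases (2191 genes) it was 35.0% and 32.5%, with a median of 0.11. The excess of members was uneven over length. In 4 sets of 36 members, from short to long, the medians were 1.31, 0.78, 0.11 and 0.48. Other genes in the same ranges had 0.12, 0.09, 0.14 and 0.26. The 17 NB-ARC genes that the words miss had 11 higher and 3 lower, with a median of 0.55. Among the 144, AT1G59780, AT1G65850, AT2G17050 and AT3G25510 reached the level only in bon123 mock, so their place in these counts depends on that group. With a filter on the mean over the 18 libraries instead (at least 1 TPM), 65 of 125 matched genes were higher and 27 lower. Their median was 0.57, against 0.15 over all genes under that filter.

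**Figure D2:**
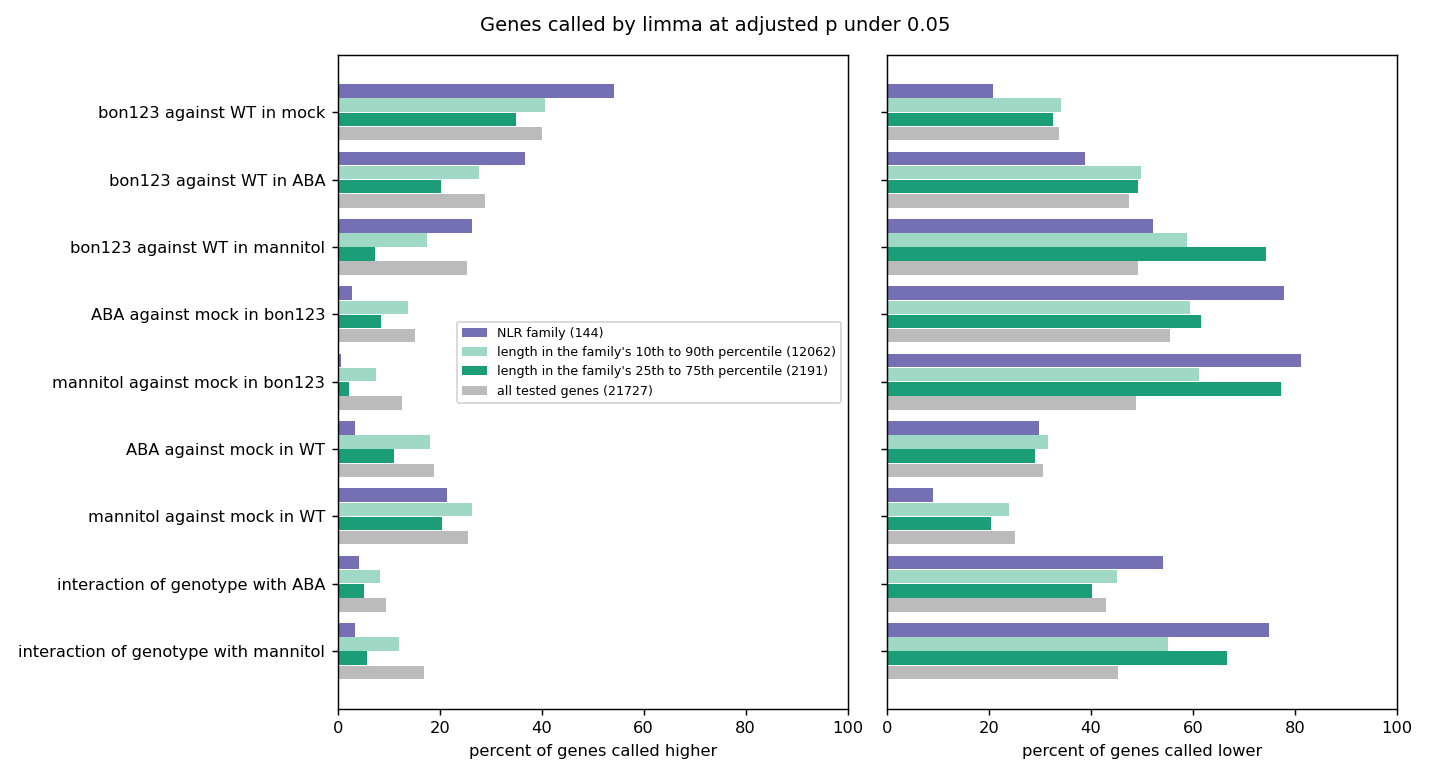
Bars give the percent of genes called higher (left) and lower (right) in each of the 9 comparisons, for the 144 members, for other genes in 2 windows of similar transcript length, and for all 21727 tested genes. In mock, 54.2% of members were higher in bon123, against 35.0% of genes in the narrower window, whereas for mannitol against mock in bon123 the members' 81.2% lower stands beside 77.2% in that window.

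All 5 helpers were higher in bon123 mock (40.1% of all tested genes were). ADR1-L1, the most abundant of them, had 90.3, 86.9 and 96.1 TPM in bon123 mock, against 16.1, 17.6 and 22.6 TPM in WT mock, with no overlap (log2 fold change 2.23 ± 0.17, adjusted p = 8.34e-09, limma). The gene AT4G08785 overlaps ADR1-L1 by 1944 bases on the opposite strand, which leaves the source of the ADR1-L1 reads uncertain here and below. ADR1 had 22.8, 23.1 and 24.3 TPM in bon123 mock, against 7.49, 8.87 and 9.05 TPM in WT mock (1.37 ± 0.16). ADR1-L2 had 35.4, 36.6 and 40.8 TPM in bon123 mock, against 13.9, 14.9 and 17.4 TPM in WT mock (1.24 ± 0.18). The helpers AT5G66910 (1.42 ± 0.16) and AT5G66900 (0.52 ± 0.10) were higher too, with highest values of 14.3 and 12.9 TPM. The groups did not overlap for any of the 5. ADR1 proteins are known to act with EDS1 and PAD4.

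**Figure D3:**
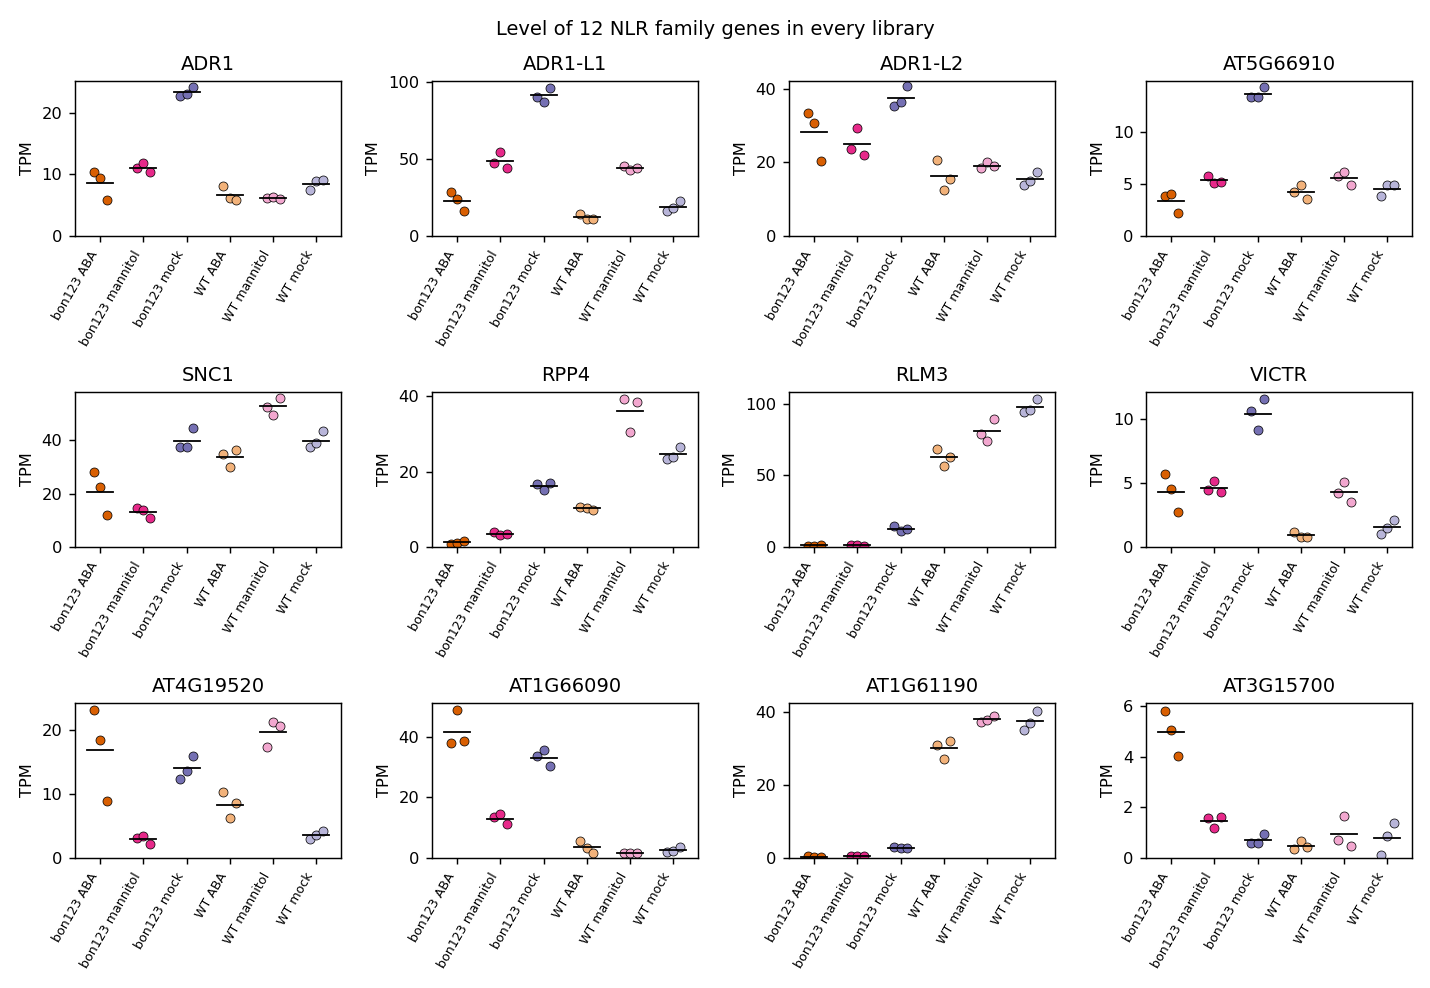
Points are the TPM of 12 members in each of the 18 libraries, 3 a group, and lines are group means. Each panel has its own linear axis from 0. ADR1-L1 lies at 86.9 to 96.1 TPM in bon123 mock, above all other groups, RLM3 and AT1G61190 are near 0 in the stressed bon123 groups, and AT3G15700 is highest in bon123 ABA.

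The largest rises in bon123 mock were in TIR genes. AT1G66090 (TIR-NB-ARC) had 33.7, 35.5 and 30.3 TPM in bon123 mock, against 1.87, 2.22 and 3.45 TPM in WT mock (3.30 ± 0.24, adjusted p = 4.25e-09, limma). AT1G57630, a TIR-only gene, had 42.9, 45.4 and 32.3 TPM in bon123 mock, against 5.02, 1.51 and 4.92 TPM in WT mock (3.19 ± 0.35). AT5G41750 rose by 3.02 ± 0.30 and AT5G38340 by 2.85 ± 0.18. VICTR, a TIR receptor gene named for its part in the inhibition of root growth by a small molecule, had 10.6, 9.12 and 11.6 TPM in bon123 mock, against 1.02, 1.49 and 2.1 TPM in WT mock (2.19 ± 0.20, adjusted p = 6.28e-08). RPS2 (1.35 ± 0.19) and RPM1 (0.57 ± 0.13), coiled-coil receptors that guard RIN4, and RPS4 (0.84 ± 0.17), a TIR receptor that pairs with RRS1, were also higher. They are from a list of known NLR genes, some of them no members. Of its 31 tested genes, 13 were higher, 6 lower and 12 not called in bon123 mock. Of all tested genes 40.1% were higher and 33.7% lower, so the list's share higher was near the background. For RPS2 the overlap with AT4G26095 leaves the source of the reads uncertain.

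The 250 bases before the gene start are shown for the 3 members with the largest rises, because WRKY factors of immunity bind a W-box, whose core is TTGAC. Capitals mark that core on either strand (TTGAC or GTCAA). The ABA response element core, ACGTG or CACGT, was searched too, and the motifs can overlap in the letters AC.
AT1G66090 (chr1:24601783-24602032, plus strand): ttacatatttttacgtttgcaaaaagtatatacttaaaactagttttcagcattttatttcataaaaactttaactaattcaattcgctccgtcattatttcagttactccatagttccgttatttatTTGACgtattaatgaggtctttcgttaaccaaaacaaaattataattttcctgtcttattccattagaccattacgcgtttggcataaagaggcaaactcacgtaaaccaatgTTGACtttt
AT1G57630 (chr1:21345195-21345444, plus strand): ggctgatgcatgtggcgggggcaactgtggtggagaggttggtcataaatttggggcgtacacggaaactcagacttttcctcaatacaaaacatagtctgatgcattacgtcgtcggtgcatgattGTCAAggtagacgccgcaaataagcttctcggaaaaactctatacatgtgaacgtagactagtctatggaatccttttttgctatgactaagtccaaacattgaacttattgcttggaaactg
AT5G41750 (chr5:16693582-16693831, plus strand): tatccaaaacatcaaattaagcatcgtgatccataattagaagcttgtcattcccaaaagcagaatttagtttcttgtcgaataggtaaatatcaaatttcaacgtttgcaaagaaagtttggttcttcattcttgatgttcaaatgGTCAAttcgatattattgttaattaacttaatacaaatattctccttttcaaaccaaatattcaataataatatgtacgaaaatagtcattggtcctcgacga
AT1G66090 held 2 W-box cores and 1 ABRE core in this window, and AT1G57630 and AT5G41750 held 1 W-box core each. A W-box core was in 57.9% of the windows of 76 members called higher in bon123 mock, 33 of those of the 66 other placed members and 45.3% of those of 21387 tested genes. An ABRE core was in 19.7%, 16.7% and 24.0% of the same windows. These are matches of letters and were not tested.

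The members lower in bon123 mock included genes near 0. RLM3, a TIR gene with a part in resistance to fungi, had 14.5, 11.2 and 12.2 TPM in bon123 mock, against 94.0, 95.8 and 102.9 TPM in WT mock (-2.86 ± 0.17, adjusted p = 2.37e-10, limma). AT1G61190, an NB-ARC gene, had 2.96, 2.69 and 2.65 TPM in bon123 mock, against 35.0, 36.9 and 40.3 TPM in WT mock (-3.35 ± 0.10). AT4G19530 was at 0.06 to 0.11 TPM in bon123 mock and 16.95 to 20.81 TPM in WT mock (-4.19 ± 0.11), and AT1G61300 at 0.00 to 0.20 TPM and 16.1 to 17.3 TPM (-4.05 ± 0.10). AT4G16880, which has repeats only, had the largest fall (-4.76 ± 0.17). WRR4 (-2.33 ± 0.11), which gives resistance to white rust and RPP8 (-1.56 ± 0.18), which gives resistance to downy mildew, were lower as well. SNC1 had 37.3, 37.7 and 44.7 TPM in bon123 mock, against 37.3, 38.9 and 43.4 TPM in WT mock, and was not called (-0.00 ± 0.21, adjusted p = 0.997).

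Some members were near absent from 1 genotype under all treatments. AT1G56520, AT1G61300, AT1G62630, AT1G72910 and AT4G19530 were under 1 TPM in all 9 bon123 libraries and at least 1 TPM in all 9 WT libraries, which is 3.47% of members and 2.60% of all tested genes. AT4G11170 showed the reverse, at 1.51 to 6.68 TPM in bon123 and 0.05 to 0.39 TPM in WT, 0.694% of members against 0.598% of all tested genes. These shares are near those of all genes, and the pattern was counted after the values were seen. Of the 30 members lower in bon123 mock, 29 were also lower in ABA (96.7%, against 92.7% of all genes lower in mock) and 29 in mannitol (96.7%, against 76.9%). They are 51.8% of the members lower in ABA and 38.7% of those lower in mannitol, and over all tested genes these shares were 65.7% and 52.6%.

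Under ABA, bon123 and WT differed in both directions. Of 144, 53 members were called higher (28.9% of all tested genes were) and 56 lower (47.5% of all tested genes were), with a median log2 fold change of 0.01, against -0.31 over all genes. Genes in the wider length window had 27.6% higher and 49.9% lower, with a median of -0.36. AT1G66090 stayed far apart, at 37.9, 48.8 and 38.7 TPM in bon123 ABA, against 5.58, 3.15 and 1.65 TPM in WT ABA (3.35 ± 0.24). ADR1-L1 (0.84 ± 0.17), VICTR (1.44 ± 0.20), RPS2 (1.42 ± 0.19), AT4G14370 (2.69 ± 0.28) and AT5G40100 (2.19 ± 0.23) were higher. ADR1-L2 was called higher (0.76 ± 0.18) although its libraries overlapped, at 20.4 to 33.5 TPM in bon123 ABA and 12.5 to 20.6 TPM in WT ABA. RLM3 was at 0.58, 0.85 and 1.43 TPM in bon123 ABA, against 68.2, 56.6 and 62.4 TPM in WT ABA (-5.04 ± 0.17). Scaling by median of ratios gave 63 higher and 48 lower members, and removal of the length trend 72 and 48. The members' medians were then 0.18 and 0.45, against 0.00 and 0.06 over all tested genes. The shares called among all tested genes were not counted under these settings. Without replicate 3 of bon123 ABA it was 65 and 51.

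Under mannitol, 38 members were called higher in bon123 than in WT (25.4% of all tested genes were) and 75 lower (49.3% of all tested genes were). The median was -0.47, against -0.36 over all genes. Among other genes the fold change moved with transcript length. Genes in the wider length window had 17.5% higher and 58.9% lower, with a median of -0.55, and those in the narrower window 7.21% higher and 74.4% lower, with a median of -0.91. Among members 26.4% were higher and 52.1% lower, and the difference from genes of like length was not tested. With the trend over length removed within each library, 72 members were higher and 51 lower, and the median was 0.39, of the opposite sign. That setting moves the median of all tested genes to 0.03. The shares called among all tested genes were not counted under it, so the shares above are no background for it. Of the 36 shortest members, up to 2762.75 bases, 19 were higher and 9 lower, and of the 36 longest, from 4117.5 bases, 6 were higher and 25 lower. In those ranges the medians were 0.49 and -1.19 for members and -0.25 and -1.24 for other genes.

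**Figure D4:**
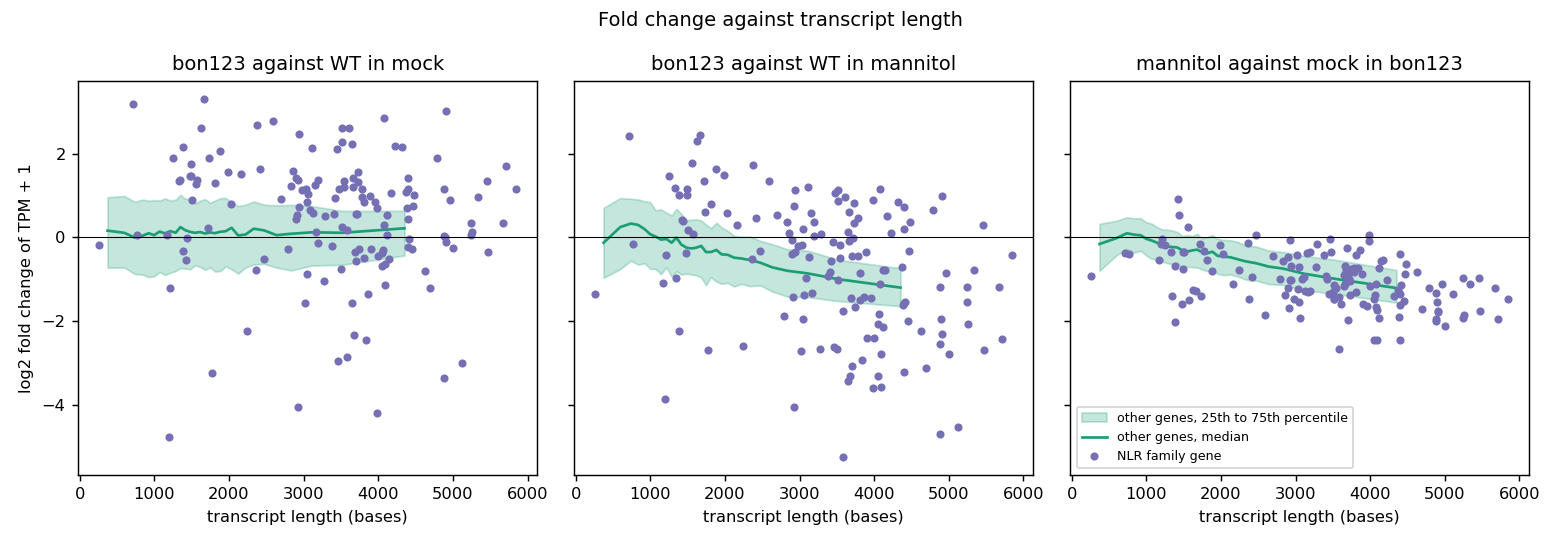
Points are the log2 fold changes of the 144 members against transcript length in 3 comparisons, the line is the median of other genes in bins of length, and the band spans their 25th to 75th percentile. In mock the line is nearly flat, with medians of 0.12 and 0.26 in the length ranges of the 36 shortest and 36 longest members. In both comparisons with bon123 mannitol it falls with length, for mannitol against mock in bon123 to a median of -1.25 in the range of the 36 longest.

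The largest rises again included AT1G66090. It had 13.4, 14.4 and 11.2 TPM in bon123 mannitol, against 1.46, 1.49 and 1.76 TPM in WT mannitol (2.44 ± 0.24), and AT1G57630 (2.42 ± 0.35), AT3G26470 (2.29 ± 0.20) and AT5G45440 (1.78 ± 0.18) were the other largest rises. SNC1 had 14.6, 13.7 and 10.6 TPM in bon123 mannitol, against 52.7, 49.7 and 55.9 TPM in WT mannitol (-1.95 ± 0.21, adjusted p = 4.87e-07, limma). RPP4 (-3.06 ± 0.12) and RPP5 (-2.07 ± 0.23), TIR receptors of downy mildew resistance, lie in the same cluster on chromosome 4. Of its 10 members, from AT4G16857 to AT4G16990, 9 were lower and 0 higher in bon123 mannitol, while in mock 4 were higher and 3 lower. Of all tested genes 49.3% were lower and 25.4% higher in mannitol, and 40.1% higher and 33.7% lower in mock. RLM3 had the largest fall (-5.24 ± 0.17), followed by AT1G61190 (-4.71 ± 0.10), AT1G58602 (-4.52 ± 0.14) and AT1G61300 (-4.05 ± 0.10). Among helpers ADR1 was higher (0.75 ± 0.16) and AT5G66900 lower (-1.42 ± 0.10). RPS2 was called lower (-0.49 ± 0.19), with overlapping libraries, and its value was 0.51 with the length trend removed.

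In WT, ABA changed few members upward. Of 144, 5 were called higher (18.9% of all tested genes were) and 43 lower (30.6% of all tested genes were), with a median of -0.23, against -0.11 over all genes and -0.13 in the wider length window. The 4 largest rises without overlap were AT4G19520 (1.02 ± 0.26), RPS2 (0.65 ± 0.19), AT5G22690 (0.65 ± 0.21) and CW9 (0.53 ± 0.16). The largest falls were AT3G26470 (-1.75 ± 0.20), AT4G16880 (-1.56 ± 0.17), AT3G04210 (-1.42 ± 0.25) and AT5G44910 (-1.25 ± 0.20). RPP4 had 10.7, 10.2 and 9.79 TPM in WT ABA, against 23.4, 23.9 and 26.6 TPM in WT mock (-1.19 ± 0.12). ADR1-L1 fell by 0.61 ± 0.17 on the log2 scale. The count of 5 higher members was 8 without replicate 3 of bon123 ABA, 3 without replicate 1 of WT mock and 17 with the length trend removed.

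Mannitol in WT raised more members than it lowered. Of 144, 31 were called higher (25.5% of all tested genes were) and 13 lower (25% of all tested genes were), with a median of 0.18, against 0.02 over all genes and 0.04 in the wider length window. The share higher, 21.5%, was thus near the background, and the share lower, 9.03%, was below it. AT4G19520, a TIR-NB-ARC gene, had 17.5, 21.3 and 20.6 TPM in WT mannitol, against 2.91, 3.58 and 4.29 TPM in WT mock (2.19 ± 0.26, adjusted p = 3.92e-06, limma). ADR1-L1 had 45.3, 42.7 and 43.7 TPM in WT mannitol, against 16.1, 17.6 and 22.6 TPM in WT mock, with no overlap (adjusted p = 3.09e-05). VICTR had 4.19, 5.06 and 3.52 TPM in WT mannitol, against 1.02, 1.49 and 2.1 TPM in WT mock (1.06 ± 0.20). AT5G22690 (1.03 ± 0.21), RPP8 (0.71 ± 0.18), RPS4 (0.66 ± 0.17), RPS2 (0.65 ± 0.19) and RPP4 (0.53 ± 0.12) also rose, and SNC1 was not called (0.40 ± 0.21, adjusted p = 0.133). AT5G45490 had the largest fall (-1.30 ± 0.14), then AT4G16880 (-1.04 ± 0.17), AT3G26470 (-0.94 ± 0.20) and AT1G72920 (-0.82 ± 0.17).

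In bon123, most members were lower after both treatments. Tissue markers moved with ABA there. The root sum, nearly all of it PYK10, was 1454 to 1979 TPM in bon123 ABA, against 15117 to 16476 TPM in bon123 mock. The shoot sum was 229 to 264 TPM, against 971 to 1317 TPM. Of the 4 root markers, 2 were called lower, 1 higher and 1 not called. EXPA7 was the higher one, with mean levels of 17.95 TPM in bon123 ABA and 5.94 TPM in bon123 mock. The part of these markers in the response was not tested. After ABA, 4 of 144 were called higher (15.1% of all tested genes were) and 112 lower (55.5% of all tested genes were), with a median of -0.94, against -0.51 over all genes. Genes in the wider length window had 13.8% higher and 59.5% lower, with a median of -0.55, and those in the narrower one 8.53% and 61.5%, with a median of -0.62. AT1G59780, AT1G65850, AT2G17050 and AT3G25510 reached the level only in bon123 mock, so a fall from there is favoured by their selection. With the filter on the mean over the 18 libraries, 2 of 125 matched genes were higher and 100 lower. Their median was -1.05, against -0.54 over all genes under that filter. AT5G38340 had 1.79, 1.23 and 0.50 TPM in bon123 ABA, against 15.2, 15.7 and 19.2 TPM in bon123 mock (-3.07 ± 0.18). RPP4 had 0.86, 1.03 and 1.51 TPM in bon123 ABA, against 16.6, 15.1 and 16.9 TPM in bon123 mock (-3.02 ± 0.12, adjusted p = 8.96e-12, limma). AT4G23510 (-2.83 ± 0.25), RLM3 (-2.82 ± 0.17) and RPP5 (-2.47 ± 0.23) fell too. All 10 members of the chromosome 4 cluster were lower, against 4 of 10 in WT (55.5% and 30.6% of all tested genes). AT3G15700, an NB-ARC gene without TIR, went the other way, at 5.84, 5.06 and 4.02 TPM in bon123 ABA, against 0.59, 0.57 and 0.94 TPM in bon123 mock (1.81 ± 0.25). RPS2 (0.72 ± 0.19), AT5G45240 (0.46 ± 0.12) and AT5G18350 (0.43 ± 0.12) were the other 3 rises. Scaling by median of ratios moves the median of all genes to -0.03 and gave 14 higher and 75 lower members. Removal of the length trend gave 26 and 67, and leaving out replicate 3 of bon123 ABA gave 10 and 100. With the trend removed the median was -0.31, against 0.04 over all genes.

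After mannitol in bon123, 1 of 144 members was called higher (12.6% of all tested genes were) and 117 lower (48.8% of all tested genes were). The median was -1.08, against -0.36 over all genes. Long genes fell together, since genes in the wider length window had 7.53% higher and 61.1% lower, with a median of -0.54, and those in the narrower one 2.24% higher and 77.2% lower, with a median of -0.89. In 4 sets of 36 members, from short to long, members had medians of -0.50, -1.01, -1.14 and -1.35, and other genes in the same ranges -0.28, -0.84, -1.01 and -1.25. With the length trend removed, 26 members were higher and 52 lower, with a median of -0.16, against 0.01 over all genes. Scaling by median of ratios gave 5 and 100, with a median of -0.70, against 0.01 over all genes. Members that reached the level only in bon123 mock are counted here too. With the filter on the mean over the 18 libraries, 1 of 125 matched genes was higher and 105 lower. Their median was -1.17, against -0.39 over all genes under that filter. The largest falls were RLM3 (-2.66 ± 0.17), RDL5 (AT1G58807, -2.46 ± 0.40), AT3G44670 (-2.45 ± 0.23) and RF9 (AT1G59218, -2.44 ± 0.57). RDL5 and RF9 had mean levels of 15.95 and 12.65 TPM in bon123 mock, against 2.52 and 1.57 TPM in bon123 mannitol. Their copies AT1G59124 and AT1G58848 had 12.61 and 17.59 TPM, against 3.13 and 6.21 TPM. The split of reads between copies is uncertain, and so is the rank of RDL5 and RF9. SNC1 (-1.55 ± 0.21), RPP4 (-1.96 ± 0.12) and RPS4 (-1.63 ± 0.17) fell, and these 3 kept their sign with the length trend removed. The single rise was AT1G52660 (0.93 ± 0.34), and it was not called without replicate 3 of bon123 mannitol or without replicate 1 or 2 of bon123 mock.

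All 5 helpers were called lower in bon123 after each treatment in TPM, with signs that turned under another scaling for ADR1-L2 after ABA and for ADR1-L1 and ADR1-L2 after mannitol. Of all tested genes 55.5% were lower after ABA and 48.8% after mannitol. In the narrower length window these shares were 61.5% and 77.2%. After ABA the log2 fold changes were -2.00 ± 0.17 for ADR1-L1, -1.78 ± 0.16 for AT5G66910, -1.39 ± 0.16 for ADR1 and -0.73 ± 0.10 for AT5G66900. ADR1-L2 after ABA was at -0.43 ± 0.18, but at 0.24 by median of ratios and 0.19 with the length trend removed. After mannitol they were -1.69 ± 0.10 for AT5G66900, -1.21 ± 0.16 for AT5G66910 and -1.01 ± 0.16 for ADR1. ADR1-L1 after mannitol was at -0.90 ± 0.17 and ADR1-L2 at -0.58 ± 0.18, but they were at 0.11 and 0.20 with the length trend removed. In TPM, ADR1-L1 in bon123 mannitol (47.0, 54.1 and 44.2) overlapped with WT mannitol (45.3, 42.7 and 43.7).

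**Figure D5:**
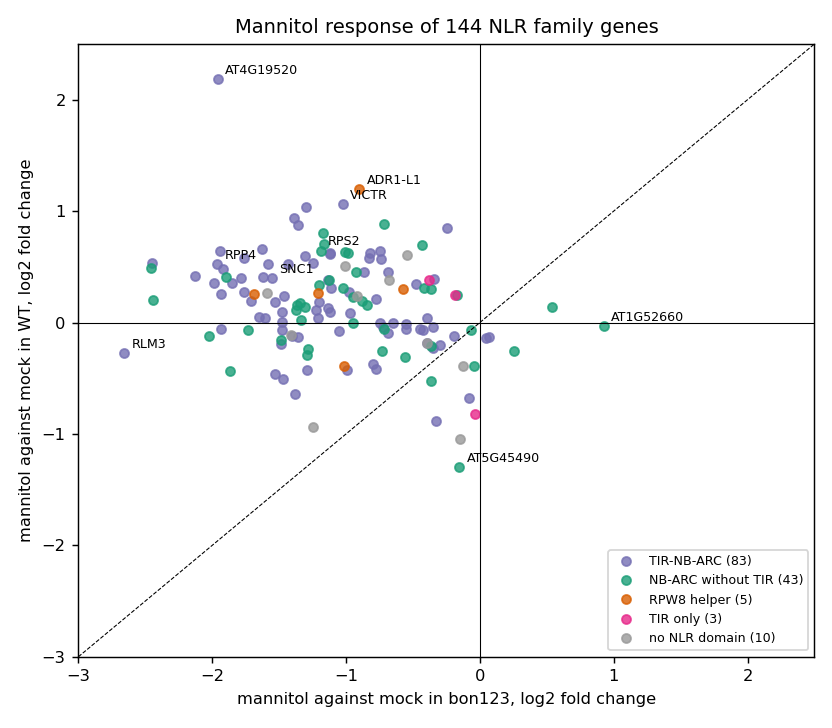
Each point is 1 of the 144 members, by its log2 fold change for mannitol against mock in bon123 (horizontal) and in WT (vertical), colored by domain class. The dashed line marks equal responses. Most points lie left of it, as 108 members had a lower response in bon123, and AT4G19520 is farthest from it, at -1.96 in bon123 and 2.19 in WT.

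The difference between the responses was tested as an interaction, in which WT's response is subtracted from that of bon123. For mannitol, 5 members were called higher (17.0% of all tested genes were) and 108 lower (45.3% of all tested genes were), with a median of -1.29, against -0.42 over all genes. In the wider length window 12.1% were higher and 55.2% lower, with a median of -0.64, and in the narrower one 5.80% and 66.7%, with a median of -0.98. AT4G19520 had the largest interaction (-4.14 ± 0.37, adjusted p = 2.15e-07, limma). It had 3.18, 3.38 and 2.11 TPM in bon123 mannitol and 12.4, 13.6 and 16.0 TPM in bon123 mock, while in WT mannitol it was above WT mock as given above. AT3G44670 (-2.99 ± 0.33), RDL5 (-2.95 ± 0.57), RF9 (-2.64 ± 0.81), RPP4 (-2.49 ± 0.18), RPS4 (-2.29 ± 0.24), ADR1-L1 (-2.10 ± 0.25), VICTR (-2.09 ± 0.28), SNC1 (-1.95 ± 0.30) and RPS2 (-1.84 ± 0.27) were lower as well. RDL5 and RF9 are here AT1G58807 and AT1G59218, whose reads can be split with their copies, so these values are uncertain. AT5G45490 was the largest of the 5 in the other direction (1.14 ± 0.19), with 24.6, 28.2 and 29.7 TPM in bon123 mannitol, against 9.47, 12.7 and 8.54 TPM in WT mannitol. The gene AT5G45472 overlaps AT5G45490 by 2017 bases on the same strand, which leaves the source of the reads uncertain. Also among the 5 were AT4G16880 (0.89 ± 0.24), AT1G72920 (0.79 ± 0.24) and AT4G19530 (0.60 ± 0.15), and the last of these has next to no level in bon123. Of the 31 members that rose in WT, 30 fell in bon123 (96.8%, against 48.7% of all genes that rose in WT). Members not called in WT mostly fell in bon123 as well, 81 of 100. In the narrower length window 77.2% of genes fell in bon123, and those that rose in WT were not counted apart. With the length trend removed the interaction was higher for 24 members and lower for 53, and with a pseudocount of 0.1 the members called higher were 2. Removal of the trend gave a median of -0.29, against -0.01 over all genes. Members that reached the level only in bon123 mock are among the 144. With the filter on the mean over the 18 libraries, 5 of 125 matched genes were higher and 97 lower.

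For ABA the interaction was called higher for 6 members (9.51% of all tested genes were) and lower for 78 (43.0% of all tested genes were), with a median of -0.75, against -0.44 over all genes. In the wider length window 8.26% were higher and 45.2% lower. RLM3 (-2.18 ± 0.24), AT5G38340 (-2.18 ± 0.26), AT3G44670 (-2.10 ± 0.33) and AT5G38350 (-1.93 ± 0.22) had the largest differences, and ADR1-L1 was at -1.39 ± 0.25. AT3G15700 was the largest in the other direction (2.02 ± 0.35), and AT5G45240 was also higher (0.46 ± 0.18). AT4G16880 was called higher (1.04 ± 0.24) but was at -0.19 with a pseudocount of 0.1, and AT1G72910 (0.85 ± 0.30) was at 0.01 there. In the bon123 ABA and bon123 mock libraries AT4G16880 had at most 1.18 TPM and AT1G72910 at most 0.63 TPM. With that pseudocount 1 member was higher, against 6. Scaling by median of ratios gave 8 higher and 45 lower, and removal of the length trend 14 and 44. The medians were then -0.33 and -0.25, against 0.04 and 0.03 over all genes. Members that reached the level only in bon123 mock are counted here too. With the filter on the mean over the 18 libraries, 4 of 125 matched genes were higher and 72 lower. The 6 were 2 or 3 when replicate 2 of bon123 ABA, replicate 3 of bon123 mock, replicate 2 of WT ABA or replicate 2 or 3 of WT mock was left out. Interactions and responses within a genotype share their mock libraries and are given side by side as values only.

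A list of 21 genes that work with NLRs (chaperones, guarded proteins, EDS1 partners, and repressors) moved with the family in mock. Of the 21, 14 were called higher and 0 lower in bon123 mock (40.1% and 33.7% of all tested genes), with a median of 0.59. BAP1, a partner of BON1 that restrains cell death, had the largest rise (4.70 ± 0.22), then PBL2 (3.05 ± 0.18), a kinase that is modified by a bacterial effector, and EDS1B (2.53 ± 0.19). HSP90.1 (1.83 ± 0.25) and SGT1B (1.08 ± 0.09), which fold NLR proteins, BIR1 (1.80 ± 0.18), PAD4 (1.48 ± 0.17), RIN4 (1.45 ± 0.12) and SAG101 (0.62 ± 0.17) rose, and EDS1 rose by 0.38 ± 0.13. SGT1A was not called (0.08 ± 0.09, adjusted p = 0.463, limma). After ABA in bon123, 0 were higher and 13 lower, and after mannitol 0 and 14, against 5 and 5, and 7 and 3, in WT. Of all tested genes, 55.5% were lower after ABA and 48.8% after mannitol in bon123, against 30.6% and 25% in WT. SGT1A fell by 2.77 ± 0.09, EDS1B by 2.44 ± 0.19, SGT1B by 1.66 ± 0.09 and EDS1 by 1.34 ± 0.13 on the log2 scale after ABA in bon123. BAP1 and PAD4 stayed above WT in both treatments, BAP1 at 3.80 ± 0.22 in ABA and 3.84 ± 0.22 in mannitol, and PAD4 at 1.11 ± 0.17 and 1.64 ± 0.17. The interaction with mannitol was lower for 17 of the 21 and higher for 0 (45.3% and 17.0% of all tested genes), with PBL2 at -2.04 ± 0.25, SAG101 at -1.81 ± 0.24 and BIR1 at -1.37 ± 0.26.

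NLR genes often lie side by side, and 103 of the 142 placed members had another member within 10 gene positions. The cluster of 10 from AT1G72840 to AT1G72950 had 7 higher and 2 lower in bon123 mock, and the cluster of 5 from AT1G58602 to AT1G59218 had 0 higher and 2 lower. Of all tested genes 40.1% were higher and 33.7% lower there. In the group of 4 from AT4G19500 to AT4G19530, the neighbours AT4G19520 (12.4, 13.6 and 16.0 TPM in bon123 mock, against 2.91, 3.58 and 4.29 TPM in WT mock) and AT4G19530 went in opposite directions. In mannitol the cluster of 5 had 5 and the group of 4 had 4 members lower in bon123 than in WT, where 49.3% of all tested genes and 74.4% of genes in the narrower length window were lower. The highest mean levels over all libraries were those of AT5G45510 (76.3 TPM), RLM3 (42.6 TPM), ADR1-L1 (39.5 TPM), AT3G26470 (36.7 TPM), AT1G72900 (34.0 TPM) and SNC1 (33.3 TPM). AT5G45510 and AT3G26470 are among the members classed as without an NLR domain, although AT5G45510 holds the P-loop pattern.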

How the data were processed

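The deposited table holds TPM values that the authors made from RNA sequencing of 18 libraries. TAIR10 is the build, and RSEM 1.3.1, HISAT2 2.1.0 and DESeq2 1.24.0 are tools, given per the submitters' processing notes without their roles. TPM keeps no read depth, so depth is unknown and precision rests on 3 libraries a group. The members and gene lists were chosen with earlier results of these data known. From the deposited values, log2(TPM + 1) was fitted with limma 3.58.1 in R 4.3.3 (6 group means, 18 libraries, trend on, two-sided) for 9 comparisons. The fit was tested on simulated data. Named genes are a list of known NLR genes, partners and copines, the 4 largest rises and falls per comparison among called members without overlap of libraries, and the 6 highest levels. Domain classes use the table's Pfam column besides its words, a change made after the table was seen. TAIR10.1 coordinates and sequences were matched by locus for 142 members. Alternatives were a pseudocount of 0.1, other filters, median-of-ratios scaling, length trend removed, replicate block, a narrower member rule and leaving out each library. Analyses in Python 3.11.15.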

Additional observations from a re-analysis of the deposited data

Results flagged for a closer look

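The responses to treatment differed between bon123 and WT by the interaction test (limma, adjusted p under 0.05) for many members, and these differences are what was marked for a closer look. For ABA, 6 members had a higher and 78 a lower response in bon123 (9.51% and 43.0% of all tested genes had). With a pseudocount of 0.1 in place of 1, it was 1 higher. The log2 differences were 2.02 for AT3G15700, 1.04 for AT4G16880 (-0.19 with a pseudocount of 0.1), 0.85 for AT1G72910, 0.46 for AT5G45240, -1.39 for ADR1-L1, -1.93 for AT5G38350, -2.10 for AT3G44670, and -2.18 for both RLM3 and AT5G38340. For mannitol, 5 members had a higher and 108 a lower response in bon123 (17.0% and 45.3% of all tested genes had). In the narrower length window 5.80% of genes had a higher and 66.7% a lower response. The log2 differences were 1.14 for AT5G45490, 0.89 for AT4G16880, 0.79 for AT1G72920, 0.60 for AT4G19530, -1.84 for RPS2, -1.95 for SNC1, -2.09 for VICTR, -2.10 for ADR1-L1, -2.29 for RPS4, -2.49 for RPP4, -2.64 for RF9, -2.95 for RDL5, -2.99 for AT3G44670 and -4.14 for AT4G19520. Among partner genes it was -2.04 for PBL2, -1.81 for SAG101 and -1.37 for BIR1. The values of RDL5 (AT1G58807) and RF9 (AT1G59218) are uncertain, since reads can be split with their copies. The counts include members that reached the level only in bon123 mock. The shoot markers were far lower in every bon123 group, and their part in these differences was not tested.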

How the results depend on the processing

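With the length trend removed, members called higher were 72 for bon123 against WT in mannitol (the median turned to 0.39), 26 for ABA and 26 for mannitol against mock in bon123, 17 for ABA against mock in WT, and 14 and 24 for the interactions with ABA and mannitol, while members called lower were 67, 52, 44 and 53 for ABA in bon123, mannitol in bon123 and the 2 interactions. With the median-of-ratios scaling, 14 and 5 were higher for ABA and mannitol in bon123, 45 lower for the interaction with ABA, and 10 higher for that with mannitol. With the mean filter 2 were higher for ABA in bon123, without a filter 2 for mannitol in bon123, and with a pseudocount of 0.1 it was 1 and 2 for the interactions. In each of these the cause was not tested, and the shares called among all tested genes were not counted. Leaving out 1 library gave 4 to 10 higher for ABA in bon123 (10 without bon123 ABA replicate 3), 0 to 2 for mannitol in bon123, 3 to 8 for ABA in WT and 2 to 6 for the interaction with ABA. For bon123 against WT in mock it gave 76 to 83 higher and 27 to 35 lower, and for mannitol in WT 22 to 46 higher.

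With the length trend removed, after mannitol in bon123 ADR1-L1 was at 0.11, ADR1-L2 at 0.20 and VICTR at 0.11, ADR1-L2 after ABA in bon123 at 0.19 (0.24 with the median-of-ratios scaling), and RPS2 in bon123 against WT in mannitol at 0.51. AT4G16880 had an interaction with ABA of -0.19 with a pseudocount of 0.1. Of 161 named values, 150 kept sign and call with the length trend removed, 153 with the median-of-ratios scaling and 159 without a filter. Same-numbered libraries showed no strong shared deviation (45 pairs, r -0.244 to 0.263, median -0.0282, 7 pairs over 0.1). Whether they were grown or prepared together is not stated, and correlations over 3 libraries a group cannot decide it. With the replicate block, 78 members were higher and 30 lower in bon123 mock, and 159 of the 161 named values kept their call. Read depth is unknown, so what it limits cannot be stated.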
